A study of Mus musculus with 24 samples.

Results

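Mouse embryonic stem cells (mESC) carrying an expanded CAG repeat in Htt were compared with wild-type mESC by small RNA sequencing. The comparison took 8 of the series' 24 libraries: 6 from the lines Q50, Q92 and Q111, and 2 from wild-type cells (WT), chosen by cell type and genotype label. The series as a whole profiled small RNAs in mESC and in neural progenitor cells (NPC) made from them, for an Htt knockout (KO), WT and 4 repeat lengths, with 2 biological samples per group. Per the labels, the knock-in lines are heterozygous, so each of Q50, Q92 and Q111 carries 1 expanded allele beside a normal one. The names give the repeat number, except that the line titled Q92 has 89 repeats in the growth protocol. The mESC libraries of the KO line and of Q20, a knock-in with a short repeat, are given beside the results for reference. All mESC were kept in serum with leukemia inhibitory factor on gelatin and a layer of mouse fibroblast feeder cells. Each genotype is 1 line, so the repeat and other differences between lines cannot be told apart, and the 6 expanded libraries stand for 3 lines. The libraries were read as single 50-base reads, and each gene's reads were counted without normalization.

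Huntingtin is a large scaffold protein whose polyglutamine tract is encoded by the CAG repeat, and an expanded repeat causes Huntington's disease. Stem cells make a characteristic set of small RNAs. The microRNAs of the miR-290 to miR-295 cluster and of the miR-302 and miR-367 cluster are known for promoting the stem cell cycle, and several of them, though not all, share a seed, the bases that pair with target mRNAs. Small nucleolar RNAs (snoRNAs) guide chemical changes of ribosomal RNA, box C/D members directing methylation and box H/ACA members pseudouridine formation, and small Cajal body RNAs (scaRNAs) do the same for spliceosomal RNA. The imprinted Dlk1-Dio3 region encodes maternally expressed long RNAs that hold a large group of snoRNAs and microRNAs, and its activity is known to vary between stem cell lines.

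The mature microRNAs are shown because Mir302b and members of the miR-290 cluster lay on opposite sides of WT, and several have the same seed. None of them was called when the expanded libraries were set against WT. They are RefSeq sequences (GRCm38.p6), 5′ to 3′, with the seed, bases 2 to 8, in capitals.
miR-302b-3p: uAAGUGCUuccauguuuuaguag
miR-291a-3p: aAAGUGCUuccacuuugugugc
miR-295-3p: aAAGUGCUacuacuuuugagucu
miR-294-3p: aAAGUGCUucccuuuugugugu
miR-293-3p: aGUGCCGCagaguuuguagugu
The first 4 have the seed AAGUGCU, and miR-293-3p has GUGCCGC. The counts are per gene, so they do not tell the 2 arms of a hairpin apart.

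The 5 RNAs below WT that had the smallest p-values among small RNAs averaging at least 10 CPM (counts per gene scaled to library size) are shown because each ends in an ACA triplet followed by 3 bases, in capitals here, which is the 3′ mark of box H/ACA RNAs. The sequences are GENCODE M21 transcripts of GRCm38, 5′ to 3′.
Gm25848: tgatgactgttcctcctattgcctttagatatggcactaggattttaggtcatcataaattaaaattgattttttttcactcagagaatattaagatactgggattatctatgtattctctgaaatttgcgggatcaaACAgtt
Gm22728: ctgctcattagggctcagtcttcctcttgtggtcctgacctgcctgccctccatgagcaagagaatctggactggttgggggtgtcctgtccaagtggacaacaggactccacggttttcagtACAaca
Gm24313: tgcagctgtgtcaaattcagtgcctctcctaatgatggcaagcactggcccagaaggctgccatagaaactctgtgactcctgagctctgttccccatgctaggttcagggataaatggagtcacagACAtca
Gm22270: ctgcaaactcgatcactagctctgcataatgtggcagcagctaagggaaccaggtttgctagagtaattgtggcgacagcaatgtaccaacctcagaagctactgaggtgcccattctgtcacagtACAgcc
Gm25492: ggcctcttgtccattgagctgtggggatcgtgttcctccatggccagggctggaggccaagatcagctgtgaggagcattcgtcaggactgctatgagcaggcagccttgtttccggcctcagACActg
They lie at chr16:32243712-32243855, chr5:92056064-92056192, chr11:6619808-6619940, chr5:107905177-107905308 (plus strand, the others minus) and chr5:135053988-135054116, each within a protein-coding gene of the same strand: Fbxo45, G3bp2, Tbrg4, Rpl5 and Bud23. Gm22728 and Gm25492 are annotated as scaRNA and the other 3 as snoRNA. The motif ACA before the last 3 bases, read on the transcript strand only, is present in 19.3% of the 1559 annotated snoRNA and scaRNA genes and in 2.45% of all 141767 transcripts. Of the 30-base stretches of these RNAs, 13.9% in Gm25848, 25% in Gm24313 and 33.0% in Gm22270 also occur in other genes, so their counts are uncertain to that extent, and none do in Gm22728 and Gm25492.

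Total counts of the 8 libraries lay between 642384 and 2360434, and replicate 1 of every line was deeper than its replicate 2. Box C/D snoRNAs with a Snord symbol took 43.8% to 51.0% of the counts and genes with a microRNA symbol 0.163% to 0.497%, so microRNA values rest on few counts. Replicate 1 of Q50 stood apart, with 1.86% of its counts on the mitochondrial genome. Htt had 8 counts in each WT library and 0 to 9 in the expanded libraries, below the filter, and gene counts hold no measure of repeat length. The summed level of 24 pluripotency mRNAs was 189 and 160 CPM in WT and 129 to 177 CPM in the expanded libraries. Of 21 feeder fibroblast mRNAs, 10 had no count in these libraries, among them Col1a1, Col1a2, Col3a1 and Dcn. Their summed level was 23.0 and 16.2 CPM in WT and 18.9 to 31.7 CPM in the expanded libraries, mostly from Fn1. Of 18 neural microRNAs, 13 had no count.

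No gene passed the test when the 6 expanded libraries were set against WT with the replicate number as a block. Of 1434 genes tested with edgeR's quasi-likelihood test, 0 (0%) had a Benjamini-Hochberg adjusted p under 0.05, and the smallest adjusted p was 0.144. The test took the 6 expanded libraries as separate samples, so its error mixed the spread between lines with that within lines. At an unadjusted p under 0.05 there were 81 genes (5.65%), 38 higher (2.65%) and 43 lower (3%). DESeq2's Wald test called 1 gene, Mir302b. Each line set against WT gave 0 called genes (0%) in Q50 and in Q92 and 5 (0.349%) in Q111. At an unadjusted p under 0.05 there were 96 genes (6.69%) in Q50, 76 (5.3%) in Q92 and 136 (9.48%) in Q111. In Q111, Mir302b and the metallothionein gene Mt2 rose, and Gm25848, the asparagine synthetase gene Asns and Prex2 fell. The lines were fitted together with WT. Their p-values thus rest on the spread between 2 samples per line, pooled over WT, Q50, Q92 and Q111. All 5 were lost without the replicate block, and none or 2 of them were called when 1 library of Q111 or WT was left out.

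**Figure D1:**
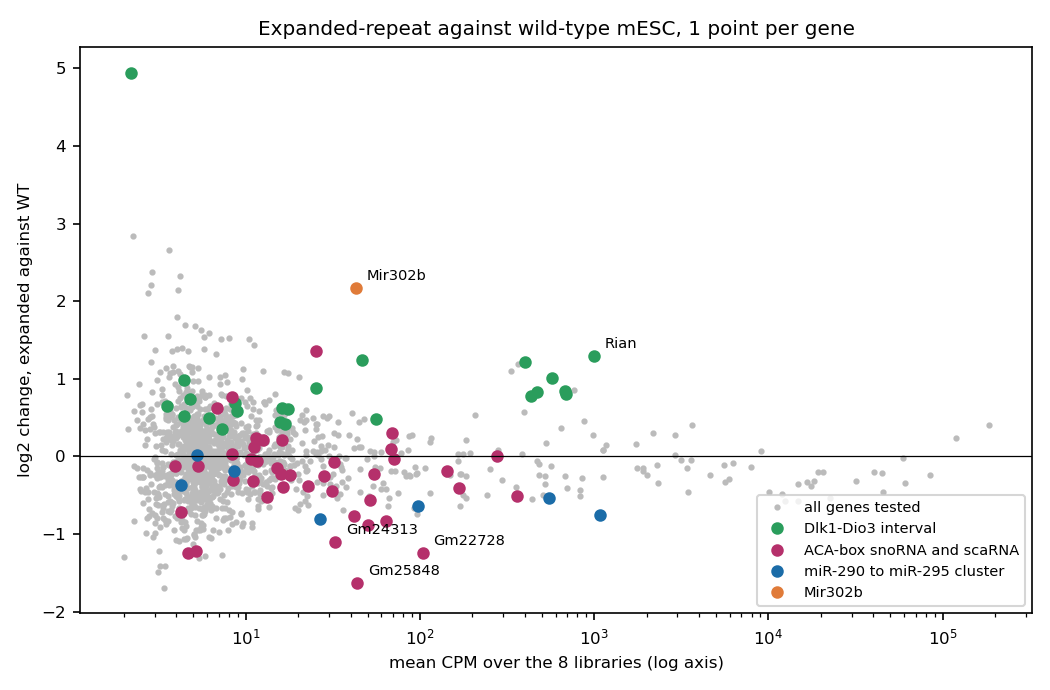
Log2 change of the expanded-repeat libraries against WT (vertical axis) by mean CPM over the 8 libraries (horizontal, log axis), 1 point for each of the 1434 genes tested. Mir302b lies highest among genes above 10 CPM, Gm25848 lowest, and all 23 Dlk1-Dio3 genes lie above 0.

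Mir302b, which encodes one of the stem cell microRNAs, had the smallest p-value of the main comparison. It is on the plus strand of chromosome 3 (127545228 to 127545301, GRCm38). Its level was 25.3 and 2.21 CPM in WT replicates 1 and 2, from 45 and 3 counts. It was 81.9 and 28.8 CPM in Q50, 37.1 and 22.0 CPM in Q92, and 114 and 34.0 CPM in Q111. Each expanded library exceeded the WT library of its own number, and the groups overlapped because replicate 2 of Q92 lay below replicate 1 of WT. The group means were 53.0 ± 36.7 CPM (SD, n = 6) and 13.7 ± 16.3 CPM (SD, n = 2). In bulk libraries such as these, fewer cells of a type and less RNA per cell cannot be told apart.

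The log2 difference for Mir302b was 2.16 ± 0.49 (SE), with an edgeR adjusted p of 0.144. By line it was 2.16 ± 0.48 in Q50 (edgeR adjusted p 0.0525), 1.44 ± 0.50 in Q92 (edgeR adjusted p 0.482) and 2.45 ± 0.47 in Q111 (edgeR adjusted p 0.00449). Mir302b was called when the line effects were averaged with equal weight (edgeR adjusted p 0.0198), a fit whose error leaves out the spread between lines. In the pooled comparison it was called when all of Q50 was left out (edgeR adjusted p 2.18e-05). It was also called there without replicate 1 of Q50 (0.0499) or of Q92 (0.00788). Without the replicate block its unadjusted p was 0.0149 and its edgeR adjusted p 0.998. The size rested on the WT libraries: it was 3.56 without replicate 1 of WT (edgeR adjusted p 0.296) and 1.66 without replicate 2 (0.999), and without the Q111 line it was 1.90 (0.9998). The knock-in with the short repeat had far more, 732 and 681 CPM in Q20, and KO had 9.35 and 1.73 CPM. Against KO, the expanded libraries were higher by 3.36 ± 0.54 in log2 (edgeR adjusted p 0.00107), and Mir302b was the 1 gene called of 1567 in that comparison (0.0638%), a call that was lost without the replicate block (edgeR adjusted p 0.999).

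The other hairpins of the same cluster were too sparse to test. Mir367 had 5 and 0 counts in WT and 22, 1, 3, 0, 11 and 4 in the Q50, Q92 and Q111 libraries in turn. Mir302a, Mir302c and Mir302d had no count in WT and at most 6, 2 and 2 counts in an expanded library. A count of 0 in WT allowed up to 3 counts, or 1.69 CPM in replicate 1 and 2.21 CPM in replicate 2. Some expanded values exceeded that limit, such as Mir302a at 3.02 CPM in replicate 1 of Q111 and Mir367 at 2.56 CPM in its replicate 2. For Mir367 this holds only against replicate 2 of WT, because replicate 1 of WT had 2.81 CPM. These hairpins fell below the filter, and their differences were not tested.

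**Figure D2:**
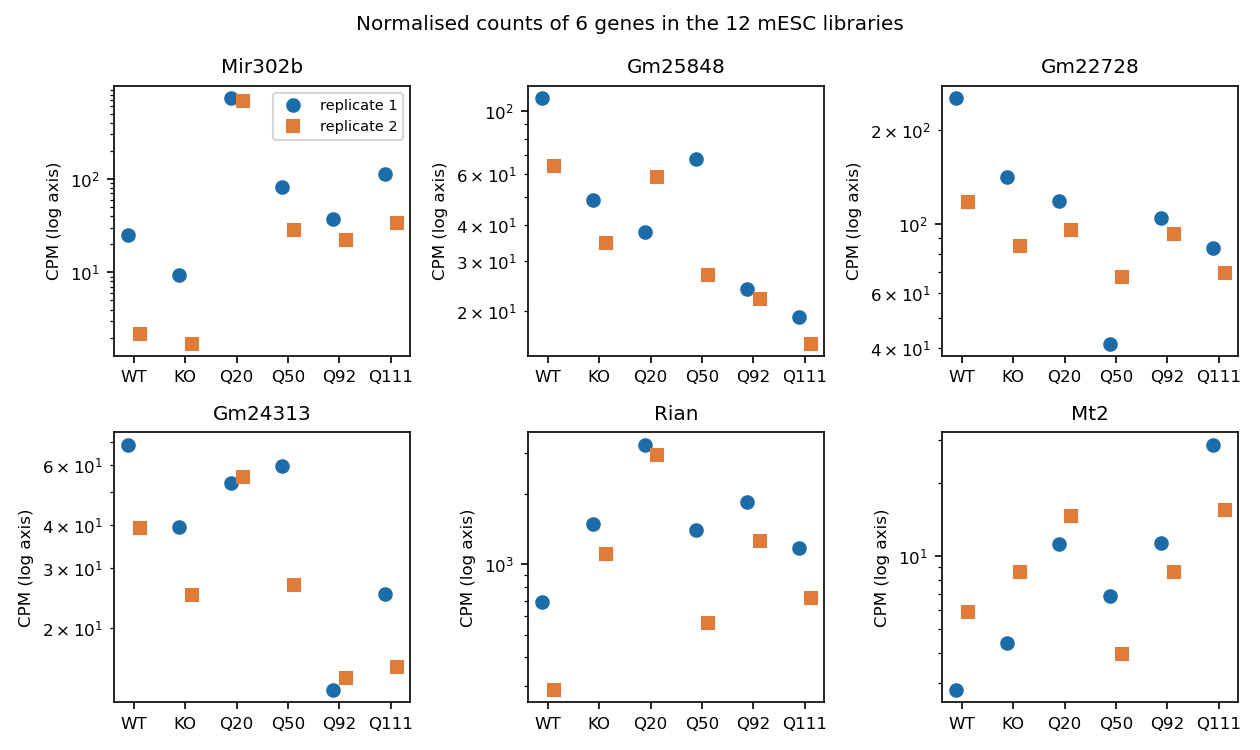
CPM (log axis) of 6 genes in the 12 mESC libraries by line, circles for replicate 1 and squares for replicate 2. Mir302b is lowest in replicate 2 of KO, Rian and Mt2 are lowest in a WT library, the 3 ACA-box RNAs Gm25848, Gm22728 and Gm24313 are highest in replicate 1 of WT, and Q20 is drawn for reference with 732 and 681 CPM of Mir302b.

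The miR-290 to miR-295 cluster, the main microRNA cluster of mouse stem cells, lay on the other side of WT. Of its 9 hairpins 7 were tested, 6 had a log2 difference below 0, and none was called. The median was -0.53, against -0.02 over all genes tested. At an unadjusted p under 0.05, 2 were lower (3% of all genes) and 0 higher. In 3 every expanded library was below the WT library of its number (6.49% of all genes). By line the median was -0.16 in Q50, -0.40 in Q92 and -1.05 in Q111, where all 7 were below 0. In Q111, 4 of the 7 were lower at an unadjusted p under 0.05, against 5.44% of all genes. The summed level was 2019 and 2764 CPM in WT, 1244 and 2092 CPM in Q50, 1355 and 2311 CPM in Q92, and 964 and 1468 CPM in Q111. Each sum was below the WT sum of its number, and replicate 2 of Q50 and of Q92 exceeded replicate 1 of WT. The sums of KO, 1623 and 2696 CPM, and of Q20, 1719 and 1885 CPM, were also below the WT sum of their number. Against KO, the median log2 difference of the expanded libraries was -0.26, with 0 members at an edgeR unadjusted p under 0.05.

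Mir293, on the plus strand of chromosome 7 (3220343 to 3220422), stood at 1457 and 1620 CPM in WT. It stood at 835 and 841 CPM in Q50, 1024 and 1315 CPM in Q92, and 701 and 879 CPM in Q111. All 6 expanded values lay below both WT values, and the log2 difference was -0.76 (edgeR unadjusted p 0.0455, adjusted p 0.864). KO stood at 1208 and 1509 CPM, the first within the range of the expanded libraries and the second within that of WT. Mir291a showed 35.4 and 40.6 CPM in WT and 14.5 to 35.3 CPM in the expanded libraries (median 22.3), with no overlap and a log2 difference of -0.80 (edgeR unadjusted p 0.0307, adjusted p 0.803). Mir295 was at 78.1 and 169 CPM in WT and 31.7 to 152 CPM in the expanded libraries (median 86.3), and each of them was below the WT library of its number. Without replicate 1 of Q50 the cluster's median was -0.62 and 7 of 7 were below 0. Without the Q111 line the median was -0.24, 5 of 7 were below 0 and 0 had an unadjusted p under 0.05. With library totals the median was -0.42, and 0 had an unadjusted p under 0.05 then or without either WT library. Mir291a and Mir302b, whose 3p arms share the seed AAGUGCU, were on opposite sides of WT, and neither was called in the main comparison.

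**Figure D3:**
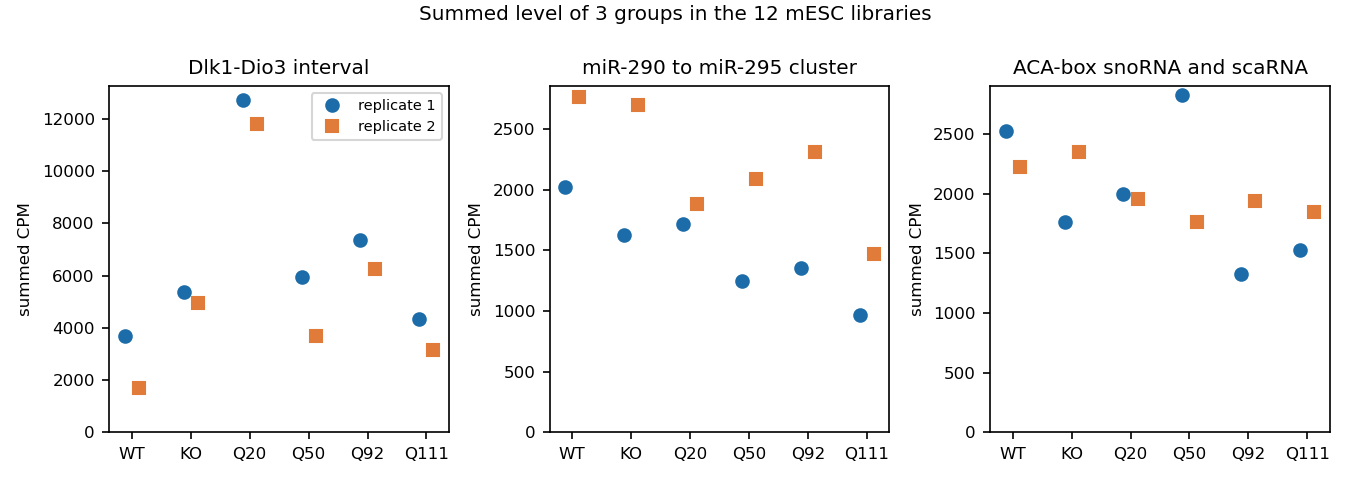
Summed CPM of 3 groups (vertical axis from 0) in the 12 mESC libraries by line, circles for replicate 1 and squares for replicate 2. The Dlk1-Dio3 sum is lowest in replicate 2 of WT (1696 CPM), the miR-290 to miR-295 sum is lowest in replicate 1 of Q111 (964 CPM), and the ACA-box sum is highest in replicate 1 of Q50 (2826 CPM).

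RNAs with the ACA triplet came next, and Gm25848 and Gm22728 had the smallest p-values of all genes below WT. Gm25848 stood at 111 and 64.1 CPM in WT. It stood at 67.8 and 26.8 CPM in Q50, 23.9 and 22.0 CPM in Q92, and 19.1 and 15.4 CPM in Q111. Only replicate 1 of Q50 reached the lower WT value, and the other 5 expanded libraries were below both. The log2 difference was -1.63 ± 0.38 over the 3 lines (edgeR adjusted p 0.144). It was -0.95 ± 0.40 in Q50 (0.652), -1.86 ± 0.43 in Q92 (0.0793) and -2.44 ± 0.42 in Q111 (0.00145), each with its edgeR adjusted p.

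In the pooled comparison, Gm25848 was called without replicate 1 of Q50 (-1.93, edgeR adjusted p 0.00281) and without the Q50 line. Gm25848 was also called from the mean of the line effects, whose error leaves out the spread between lines. It was far from a call without the replicate block (-1.60, edgeR adjusted p 0.998), without replicate 1 or 2 of WT (-1.64 and -1.54, 0.996 and 0.999) and without the Q111 line (-1.28, 0.9998). KO, at 48.9 and 34.5 CPM, and Q20, at 37.7 and 58.9 CPM, were also below both WT libraries, and the expanded libraries differed from KO by -0.50 ± 0.39 (edgeR adjusted p 0.958).

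Gm22728 stood at 253 and 118 CPM in WT and at 41.4 to 105 CPM in the expanded libraries (median 76.9), so the groups did not overlap. Its log2 difference was -1.24 ± 0.38 (edgeR adjusted p 0.748), with the lowest value in replicate 1 of Q50. Gm24313 stood at 68.5 and 39.1 CPM in WT. In the expanded lines it was 59.5 and 26.8 CPM in Q50, 13.2 and 14.3 CPM in Q92, and 25.1 and 15.4 CPM in Q111. Apart from replicate 1 of Q50, the expanded libraries were below both WT libraries, and the log2 difference was -1.11 ± 0.40 (edgeR adjusted p 0.773).

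Gm22270 was at 126 and 61.9 CPM in WT and 34.7 to 81.4 CPM in the expanded libraries (median 50.5), with a log2 difference of -0.83 ± 0.33 (edgeR adjusted p 0.773). Gm25492 was at 68.5 and 80.4 CPM in WT and 24.8 to 65.0 CPM in the expanded libraries (median 40.1), with -0.88 ± 0.36 (edgeR adjusted p 0.776). For both, every expanded library was below the WT library of its number, and for Gm25492 the groups did not overlap. In KO, Gm22728 was at 141 and 85.4 CPM, Gm24313 at 39.6 and 25.0 CPM, Gm22270 at 142 and 104 CPM, and Gm25492 at 48.4 and 71.6 CPM. In Q20 they were at 119 and 95.9, 53.0 and 55.2, 80.9 and 83.1, and 39.8 and 51.0 CPM in turn. Both KO libraries were below the WT library of their number except for Gm22270, where both were above. Both Q20 libraries were below it for Gm22728 and Gm25492, and only replicate 1 was for Gm24313 and Gm22270.

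The triplet was then counted over all snoRNA and scaRNA genes of at least 100 bases that end in it, a class chosen after these values were seen. Of 282 such genes 41 were tested, 30 were below 0, against 741 of all 1434 genes, and the median was -0.23. The 5 RNAs shown above, from which the class was taken, are among these 41 and make up 5 of its 8 members that were lower at an unadjusted p under 0.05, so that count is no separate observation. Of the other 36, 25 were below 0 with a median of -0.17. At that level 3 were lower and 1 higher, against 3% and 2.65% of all genes. In 5 of the 36 every expanded library was below the WT library of its number, against 6.49% of all genes. Over all 41, the medians by line were 0.11 in Q50, -0.35 in Q92 and -0.61 in Q111. Without replicate 1 of Q50, 38 of 41 were below 0 and the median was -0.41. Without the Q111 line 21 were below 0 (median -0.04), and without the Q92 line 26 were (median -0.03). Without replicate 1 of WT, 1 was lower at an unadjusted p under 0.05. With library totals in place of scaled sizes, which put 856 of all 1434 genes above 0 in place of 693, 24 of the 41 were below 0 and 3 were lower at that level. The 1 higher member, Gm26493, was set by replicate 1 of Q50, with 105 CPM against 10.7 to 22.0 CPM in the other 5 expanded libraries and 15.7 and 6.64 CPM in WT.

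Box H/ACA snoRNAs with a Snora symbol, a list that overlaps the ACA class, had 12 members tested. Of these, 5 were above 0 (median -0.11), and none had an unadjusted p under 0.05. Among the other guide RNAs, box C/D snoRNAs with a Snord symbol had 42 members tested. Of these, 34 were below 0 (741 of all 1434 genes), with a median of -0.22 and none at an unadjusted p under 0.05. Outside the Dlk1-Dio3 interval, 36 of 41 tested genes with box C and box D motifs were below 0 (median -0.27). A direction below 0 was thus not particular to the ACA class. Of 7 tested scaRNAs with a Scarna symbol 6 were below 0 (median -0.38), and Scarna3a (-0.95, edgeR unadjusted p 0.0328) and Scarna17 (-0.74, edgeR unadjusted p 0.0479) had the smallest p-values. Scarna17 was at 115 and 146 CPM in WT and 45.3 to 141 CPM in the expanded libraries, which overlapped. Scarna3a had 2 to 14 counts in the expanded libraries. Of the 30-base stretches, 82.0% in Scarna17 and 32.4% in Scarna3a also occur in other genes, so their counts are uncertain to that extent. The 3 Y RNAs, small RNAs bound by the Ro protein, were all below 0, with Rny1 at -0.45 ± 0.36 (edgeR adjusted p 0.991).

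**Figure D4:**
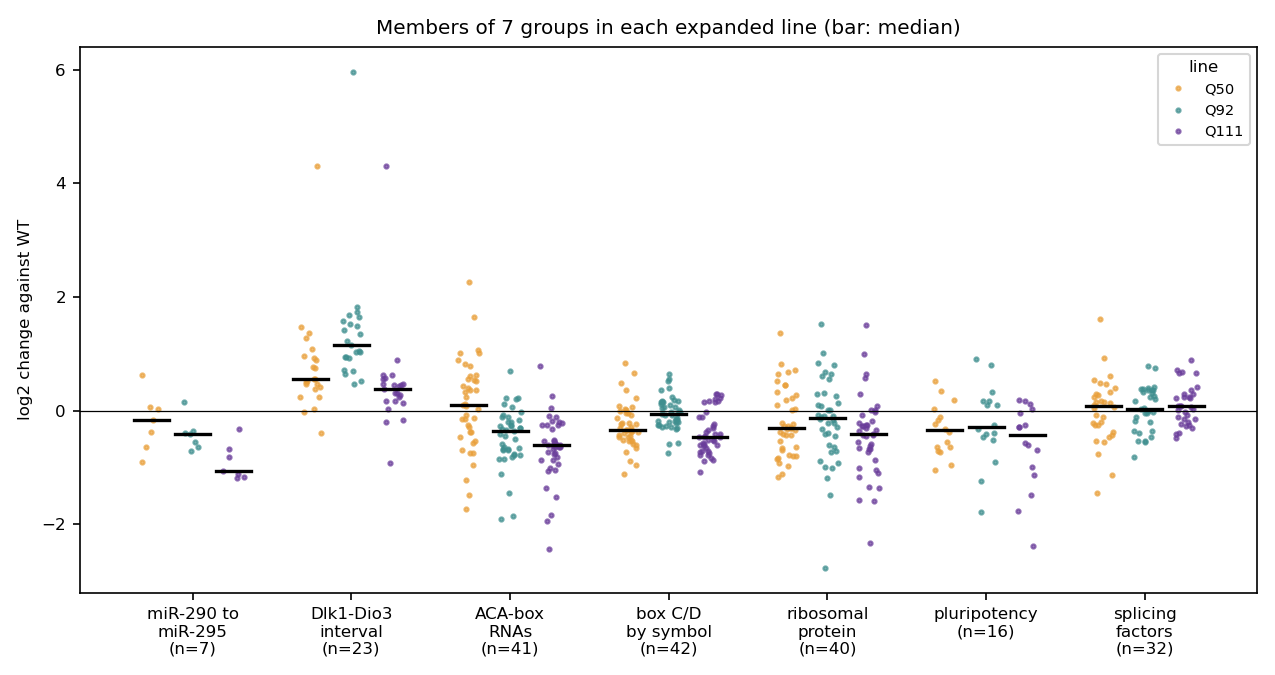
Log2 change against WT (vertical axis) of the tested members of 7 groups in Q50, Q92 and Q111, 1 point per gene, with a black bar at the median. The Dlk1-Dio3 medians are above 0 in all 3 lines (0.55, 1.16 and 0.38), and the miR-290 to miR-295 median is lowest in Q111 (-1.05); 1 Dlk1-Dio3 gene without counts in WT sets the highest points.

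In the Dlk1-Dio3 interval, from Meg3 to Mirg, all 23 tested of 90 annotated genes had a log2 difference above 0, against 48.3% of all genes tested. The median was 0.75, or 0.71 over the 22 genes with a count in WT, and none was called. At an unadjusted p under 0.05, 4 were higher (2.65% of all genes) and 0 lower. In 5 genes every expanded library exceeded the WT library of its number, against 7.18% of all genes. In Q50, 21 were above 0 (47.7% of all genes) with a median of 0.55, and 4 were higher at an unadjusted p under 0.05 (3.56% of all genes). In Q92, 23 were above 0 (45% of all genes) with a median of 1.16, and 15 were higher (2.72%). In Q111, 20 were above 0 (48.8%) with a median of 0.38, and 1 was higher (4.04%). These RNAs come from neighbouring, partly shared transcripts, so they are not independent counts of one event.

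Rian, the long RNA that holds many of the snoRNAs, spans 109603940 to 109661716 on the plus strand of chromosome 12. Its level was 692 and 289 CPM in WT. It was 1404 and 562 CPM in Q50, 1853 and 1260 CPM in Q92, and 1180 and 717 CPM in Q111. Each expanded library exceeded the WT library of its number, and only replicate 2 of Q50 lay below the higher WT value. The log2 difference was 1.29 ± 0.43 (edgeR adjusted p 0.748), or 1.83 ± 0.44 in Q92 (edgeR adjusted p 0.0796). Rian was called when the Q50 line was left out (1.46, edgeR adjusted p 0.000676). It was not when Q92 was (0.98, edgeR adjusted p 0.811), when Q111 was (1.49, 0.9998) or without the block (1.26, 0.998), and its unadjusted p was 0.0922 without replicate 2 of WT. The snoRNA Gm24564, inside Rian, was at 37.6 and 9.58 CPM in WT and 21.8 to 98.0 CPM in the expanded libraries (median 41.1), a log2 difference of 1.24 ± 0.44 (edgeR adjusted p 0.773).

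Gm25854, another snoRNA of the interval, was at 190 and 202 CPM in WT and 199 to 847 CPM in the expanded libraries (median 388), with a log2 difference of 1.22. Among the microRNAs of the interval, the log2 difference was 0.63 for Mir409, 0.48 for Mir341 and 0.42 for Mir127, none of them at an unadjusted p under 0.05. Meg3, an imprinted long RNA, had 0.562 and 5.90 CPM in WT and 0.975 to 10.5 CPM in the expanded libraries, from 1 to 13 counts. B830012L14Rik had no count in WT and is not given a fold.

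The levels of the same interval in KO and Q20 also exceeded those of WT. Its summed level was 3690 and 1696 CPM in WT, 3156 to 7375 CPM in the expanded libraries (median 5140), 5384 and 4966 CPM in KO, and 12707 and 11788 CPM in Q20. Rian stood at 1489 and 1111 CPM in KO, and the expanded libraries differed from KO by -0.14 ± 0.37 (edgeR adjusted p 0.964). Without replicate 2 of WT, the replicate with the lowest sum, 20 of the 23 genes were above 0, the median was 0.56 and 0 had an unadjusted p under 0.05. Of other imprinted genes, Mest had 0.562 and 0.737 CPM in WT and 0 to 6.91 CPM in the expanded libraries (edgeR adjusted p 0.803), and Peg10 differed by 0.32.

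The other genes called in Q111 were seen at low levels. Mt2, a metal-binding protein gene, was at 2.81 and 5.90 CPM in WT and at 28.6 and 15.4 CPM in Q111, with no overlap. It rose by 2.26 ± 0.50 in log2 (edgeR adjusted p 0.0182), while Q50 was at 6.82 and 3.97 CPM and Q92 at 11.3 and 8.60 CPM. Asns was at 27.5 and 26.5 CPM in WT and 8.54 and 6.41 CPM in Q111. It fell by 1.97 on the log2 scale (SE 0.44, edgeR adjusted p 0.0182), while the difference was -0.42 in Q50 and -0.10 in Q92. Prex2, a Rac exchange factor gene below the level set for naming and given because it was called, was at 12.9 and 11.1 CPM in WT and 1.51 and 2.56 CPM in Q111. It fell by 2.76 on the log2 scale (SE 0.56, edgeR adjusted p 0.00744), from 3 and 4 counts in Q111. Prex2 was also below both WT libraries in KO, at 3.85 and 5.18 CPM, and in Q20, at 3.49 and 9.10 CPM. Mt2 was at 4.40 and 8.63 CPM in KO and, above both WT libraries, at 11.2 and 14.6 CPM in Q20. Asns was at 19.2 and 28.5 CPM in KO and 30.7 and 18.8 CPM in Q20. None of the 3 was called in Q50, in Q92 or over the 3 lines.

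mRNA fragments showed differences of similar size without a call. Above WT were Pcm1, a centriolar satellite gene, with 5.06 and 4.42 CPM in WT and 5.73 to 17.3 CPM in the expanded libraries (median 13.4). Its log2 difference was 1.43 ± 0.45 (edgeR adjusted p 0.748), with no overlap. Cct4, a subunit of the chaperonin that folds actin and tubulin, differed by 1.08 ± 0.40, and the cyclin gene Ccng1 by 1.02 ± 0.39 (edgeR adjusted p 0.773 for both). Pcm1 stood at 19.8 and 12.9 CPM in KO and 9.76 and 4.85 CPM in Q20. Cct4 stood at 14.0 and 5.16 CPM in WT, 18.7 and 10.4 CPM in KO, and 25.8 and 27.9 CPM in Q20. Ccng1 stood at 19.1 and 4.42 CPM in WT, 17.6 and 11.2 CPM in KO, and 21.6 and 34.6 CPM in Q20. Apart from replicate 1 of KO for Ccng1, these KO and Q20 values exceeded the WT library of their number.

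Pluripotency mRNAs had 16 members tested, 12 below 0 against 741 of all 1434 genes (median -0.40), and none called. Klf5, a transcription factor of stem cell renewal, was at 7.87 and 11.8 CPM in WT and 2.01 to 6.82 CPM in the expanded libraries (median 3.68), with no overlap. Its log2 difference was -1.31 ± 0.44 (edgeR adjusted p 0.748). The core factors Nanog and Pou5f1 differed by -0.03 and 0.10, and Sox2 by -0.65. Splicing factor and spliceosome mRNAs, which bear on the series' subject of RNA processing, had 32 members tested, 18 above 0, a median of 0.04, and none at an unadjusted p under 0.05. The nearest was Srsf2 at 0.75 ± 0.43 (edgeR adjusted p 0.991).

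Ribosomal protein mRNAs had 40 members tested of 89, 28 below 0 against 741 of all 1434 genes (median -0.23) and none called. At an unadjusted p under 0.05, 4 were lower, against 3% of all genes, among them Rps19 (-1.29), Rps14 (-0.90) and Rps25 (-0.91). Rps19 was at 6.18 and 12.5 CPM in WT and 1.26 to 11.9 CPM in the expanded libraries (median 3.62). Between replicate numbers, 20 of the same 40 rose in replicate 2 and 0 fell, with a median of 1.29. Of all 1434 genes, 185 (12.9%) were called between replicate numbers, 105 higher (7.32%) and 80 lower in replicate 2. Tmem44 was at 6.03 to 8.77 CPM in replicate 1 of WT and the 3 expanded lines and at 35.9 to 89.2 CPM in their replicate 2, a rise of 3.59 (edgeR adjusted p 5.02e-07). Scaling by library totals gave 213 higher and 18 lower. The labels do not say what the number marks.

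Histone and mitochondrial genes had no shared direction. Replication-dependent histones had 40 members tested, 19 above 0, and Hist1h1b alone had an unadjusted p under 0.05, at 1.02 ± 0.48 (edgeR adjusted p 0.847). Of 21 mitochondrial genes 10 were above 0. The transfer RNA gene mt-Tm was at 164 and 61.2 CPM in WT, at 2020 CPM in replicate 1 of Q50 and at 65.5 to 231 CPM in the other 5 expanded libraries.

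Whether the difference from WT was the same in mESC and NPC was tested with a product term over 16 libraries. Of 757 genes, edgeR called 0 (0%), DESeq2's Wald test also called 0, and 27 (3.57%) had an unadjusted p under 0.05 in edgeR. The smallest adjusted p was 0.283, and the term was 0.88 ± 0.71 for Rian (edgeR adjusted p 1). For Mir302b, which had 1 count in all over the 8 NPC libraries of WT and the expanded lines, the term cannot be read.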

How the data were processed

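Members and gene lists were chosen with earlier results of these data known. The deposited values are raw counts of reads for each of 55335 Ensembl genes, in whole numbers. The submitters' processing notes name CASAVA 1.8, STAR, HTSeq and GRCm38.p6 without their roles; strand use is not given in the sources used here. Of the identifiers, 55154 matched GENCODE M21 (GRCm38), and the others held 57 of 25027120 counts. The Q89 columns are taken as the line titled Q92, to which the growth protocol gives 89 repeats.

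Counts were tested with edgeR 4.0.16 (R 4.3.3) quasi-likelihood fits, TMM scaling, filterByExpr (minimum count 10, total 15) and Benjamini-Hochberg adjustment over all genes. The replicate number was a block: in the 6 pairs of lines, replicate differences correlated by 0.43 to 0.49 over 1434 genes. No replicate pair agreed within sampling noise (chi-square per degree of freedom 26.8 to 88.3). CPM are scaled over the 12 mESC libraries. SEs come from the log2 change and its F value.

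Named were genes with adjusted p under 0.05, an absolute log2 change of at least 1, a mean of at least 10 CPM and every library on 1 side of the WT library of its number; where fewer than 6 per direction passed, the smallest p-values filled up, and each list gave its 2 most abundant and 2 smallest-p members. A 0 count allows up to 3 counts, covering counting error only. The scripts were tested on simulated data. Alternatives included DESeq2 1.42.0.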

Additional observations from a re-analysis of the deposited data

Results flagged for a closer look

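In the expanded libraries, 100 values were checked for a library far from the other 5, and 10 met that mark; chance alone gives some. Replicate 1 of Q50 set 6 of them: Snord85 at 273.45 CPM (others 108.15 to 145.48), mt-Ts2 at 6898.6 CPM (987.23 to 1795), mt-Tm at 2020.4 CPM (65.485 to 230.58), Gm25848 at 67.753 CPM (15.381 to 26.789), Gm24313 at 59.466 CPM (13.194 to 26.789) and the share of counts in other gene classes at 1.1339% (0.5346 to 0.6443). Replicate 2 of Q50 was high for Scarna9, at 249.04 CPM (131.61 to 167.27), and for Rpl18, at 66.477 CPM (3.77 to 26.747). In Q111, replicate 2 was high for mt-Rnr2, at 4850.1 CPM (1854.1 to 2931.9), and replicate 1 for Otx2, at 14.072 CPM (1.885 to 4.486).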

How the results depend on the processing

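No gene was called between the expanded libraries and WT with edgeR as tested, and other settings gave few. The number was 2 with no filter on low counts, 1 with DESeq2's Wald test, 2 from the mean of the 3 line effects, 1 among microRNA genes alone, 5 without the line Q50, 1 within replicate number 2, and 0 to 2 with 1 library left out. Without the replicate block it was 0, with 33 genes at an unadjusted p under 0.05. Library totals moved the median of all genes from -0.02 to 0.10. The mean of the 3 line effects leaves the spread between lines out of its error.

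For Q50, where 0 genes were called, DESeq2 size factors gave 2, library totals 8, no filter 4, the Wald test 1, and leaving out 1 library 0 to 34, of which 34 without replicate 2 of Q50. For Q92, also 0, they gave 3 with DESeq2 size factors, 3 with library totals, 1 with the Wald test and 14 from these lines alone. The 5 genes of Q111 became 0 without the replicate block, 2 without the filter, 2 with the Wald test, 91 from these lines alone, and 0 to 2 with 1 library left out. Replicate 2 against replicate 1 gave 111 with the Wald test and 81 to 203 with 1 library left out, 81 without replicate 1 of WT. The 1 gene called against KO became 0 without the block, 2 without the filter, and 0 to 2 with 1 library left out. The causes were not tested, beyond the fewer samples where lines or libraries were left out.

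With 1 library left out, Mt2 in Q50 lay between -0.71 and 1.30, Asns in Q50 between -0.99 and 0.016, Prex2 in Q92 between -1.09 and 0.15, and Asns in Q92 between -0.35 and 0.28, so their signs were not settled. Of 82 named genes, 21 changed sign under some alternative, and 0 of the 14 named for their p-value or call did. Those 14 were picked for small p-values in these same libraries, so their kept sign is no separate support. The alternatives of these lines alone and of the group counts were chosen after seeing the data. Leaving out a WT library leaves 1 sample, assumed to vary like the others. A difference under the limit of 3 counts was not detectable at this depth.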
